A study of Rattus norvegicus with 27 samples.

Results

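The comparison described here sets 4 RNA-seq libraries of primary rat lung fibroblasts kept for 14 days on plastic against 4 libraries of the same kind of culture at day 4. These 8 libraries, of 27 in the series, were taken by their labels (Plastic day 14 and Plastic day 4), with no measured value used in the choice. All came from Sprague-Dawley rats, an outbred laboratory stock, and from lung cells that had been bound by magnetic beads against CD90 (Thy-1, a surface protein of fibroblasts). All groups shared MucilAir medium and a collagen I coat (rat tail, 38 µg/ml). The count columns of every group are labelled Non, MonoCulture and WT (wild type). No drug, cytokine or genetic change is named in the labels of any group. The labels used here name no age, sex or number of animals and do not tie a library to a culture, so p-values measure the spread between libraries, part of which may be technical. Further libraries serve for reference: 3 of Plastic day 7, and those from soft silicone (PDMS of 3 to 5 kPa, 4 each at days 2, 4, 7 and 14).

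Lung fibroblasts make and remodel the collagen-rich matrix of the lung. Taken out of the tissue and kept on a rigid surface, they are known to spread, divide, build contractile actin bundles and take on features of myofibroblasts, the matrix-producing cells of scars. The comparison asks which transcripts account for the difference between an early and a late culture.

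The deposited table identifies genes by Ensembl rat IDs only, and 0 of its 32753 IDs could be paired with a symbol from the RefSeq table of the GRCr8 assembly. No gene is named by function here for that reason, the fibroblast label could not be checked against marker genes, and promoter sequences could not be assigned. Genes are described by their ID (at most 2 higher and 2 lower), by their abundance and by how much of the change they carried.

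The 8 libraries were deep and of similar size. In units of 1000000 counts, library totals were 22.1 ± 1.06 at Plastic day 4 (SD, n = 4; 21.1 to 23.1) and 20.3 ± 1.42 at Plastic day 14 (SD, n = 4; 18.2 to 21.3). Of 14258 genes tested, 4641 differed between day 14 and day 4 (edgeR quasi-likelihood test, Benjamini-Hochberg adjusted p under 0.05), which is 32.6% of the genes tested. The genes called higher at day 14 numbered 2038 (14.3% of the genes tested) and those called lower 2603 (18.3%). With only the 8 plastic libraries in the fit 2519 genes were called, 1306 higher and 1213 lower, so that rises were then 51.8% of the calls. Rises made up 43.9% of the calls when libraries were scaled by TMM, which assumes that most genes keep their level, and 27.1% when they were scaled by library size, a change that moved the median log2 difference of all genes from -0.05 to -0.21.

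A pair of features of the libraries bears on every value below. Plastic day 4 replicates 1 and 2 were closely alike, and so were Plastic day 14 replicates 2 and 3. Within the first and the second pair 3.61% and 3.60% of reads were assigned to different genes, and the variance between the libraries was 7.76 and 8.15 times that of random sampling of reads, against 32.1 to 391 times in all other pairs among the 39 pairs of same-group libraries. These pairs differed by more than the counting noise of reads, which repeat libraries of one culture can also do. Whether each pair came from 1 culture is not stated in the labels. The libraries were kept separate as labelled, and with each pair summed to 1 library 2375 genes were called. The second feature is Plastic day 4 replicate 3, which lay closer to the day 14 libraries than to replicates 1 and 2 of its own group. It differed from the day 14 libraries in 17.3% to 19.3% of reads, and from Plastic day 4 replicates 1 and 2 in 24% and 23.9%, and from replicate 4 in 15.8%. Without it 5319 genes were called, of which 52.2% were rises. Without Plastic day 4 replicate 2 the number was 3075.

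**Figure D1:**
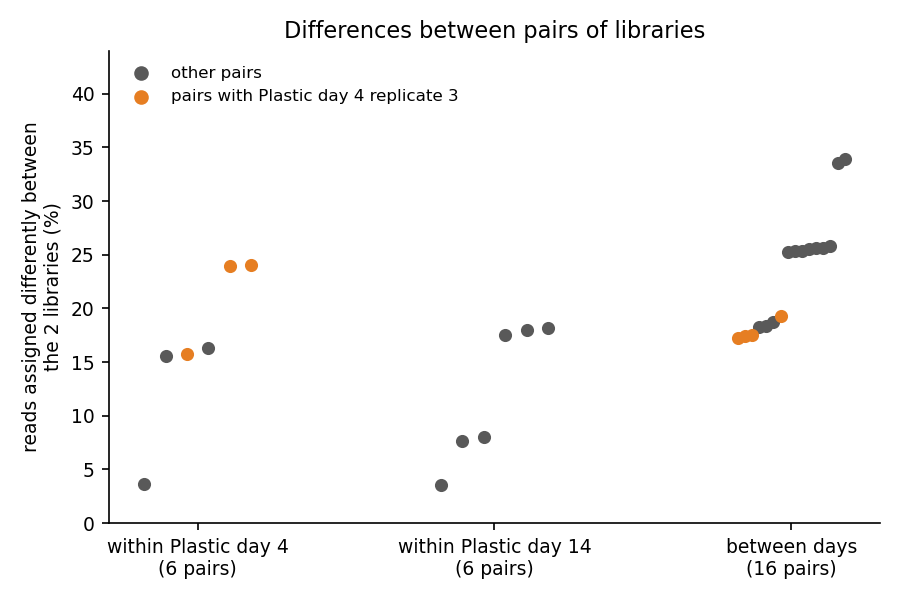
Share of reads assigned differently between the members of each pair of plastic libraries (percent, 1 point per pair), for 6 pairs within Plastic day 4, 6 within Plastic day 14 and 16 between the days; pairs that hold Plastic day 4 replicate 3 are orange. Pairs within a day reach 24%, above the lowest pair between days at 17.3%.

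Libraries of different days nevertheless differed more as groups than libraries of one day did. The median share of reads assigned differently was 25.3% over the 16 pairs between days (17.3% to 33.9%), 16.1% over the 6 pairs within Plastic day 4 (3.61% to 24%) and 12.8% over the 6 within Plastic day 14 (3.60% to 18.2%). The differences of the group means, summed without sign over all genes and divided by 2, came to 205465 CPM (counts per 1000000 counts of the TMM-scaled library total), or 20.5% of a library. Among the 70 ways to assign the 8 libraries to groups of 4, none gave a larger sum (exact permutation test, one-sided, p = 0.0286, which is the lowest value this design allows). Leaving out any 1 of the day 14 libraries gave 194829 to 214042 CPM with an exact permutation p of 0.0571, above the threshold of 0.05. With any 1 of the day 4 libraries left out the sum was 189206 to 236824 CPM and the exact permutation p 0.0286. Day accounted for 47.2% of the variance of log2 CPM over the 8 libraries.

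The change was carried by few genes on the side of gain and by more on the side of loss. Gain is used here for the summed differences of the 6628 genes with a higher mean CPM at day 14, called or not, and loss for those of the 7629 genes with a lower mean. The gain summed to 263785 CPM and the loss to 147145 CPM. They are unequal because TMM scaling does not hold the library total fixed. With library size in place of TMM each came to 199903 CPM. Taken from the largest down, 94 genes made up 50% of the gain and 334 genes made up 50% of the loss, a ratio of 3.55. The genes called in either direction carried 63.3% of the gain and 54.3% of the loss. The 94 and 334 genes were 1.42% of the genes on the gain side and 4.38% of those on the loss side. With library size scaling the numbers were 68 and 443 genes (ratio 6.51), and the 94 and 334 genes all kept their direction. Leaving out 1 library at a time gave ratios between 2.72 and 3.86. The edge of each set fell between genes of nearly equal change: the last gene inside and the first outside stood at 446 and 443 CPM on the gain side and at -75.5 and -75.3 CPM on the loss side.

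**Figure D2:**
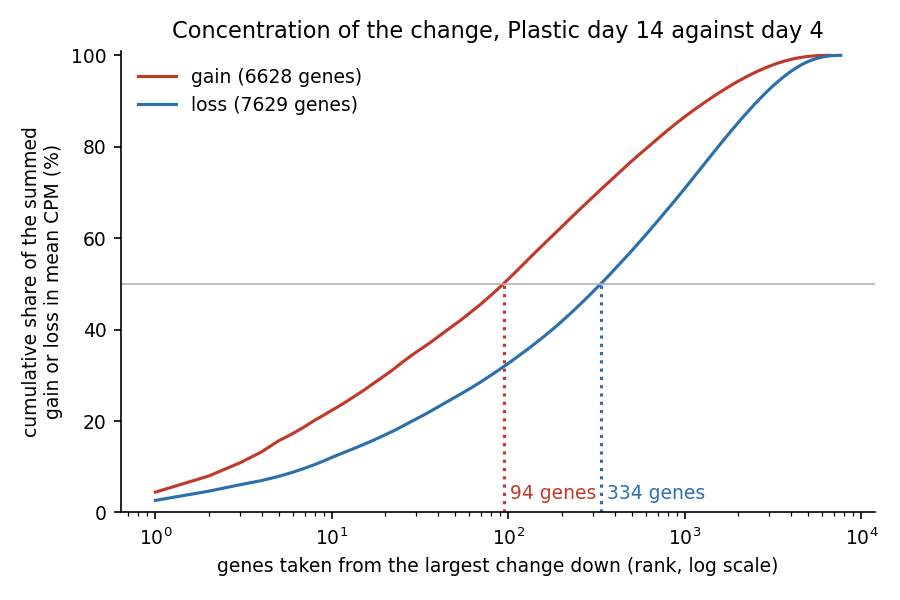
Cumulative share (percent) of the summed gain and of the summed loss in mean CPM between Plastic day 4 and Plastic day 14 (vertical axis) against the number of genes taken from the largest change down (horizontal axis, log scale). The gain curve reaches 50% at 94 genes and the loss curve at 334 genes.

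The top of each ranking shows the same contrast. The single largest gain held 4.44% of the summed gain, the 5 largest 15.7%, the 10 largest 22.4% and the 100 largest 51.1%. On the loss side the corresponding shares were 2.64%, 7.89%, 12.1% and 32.6%. The 10 genes with the largest gain took 3.18% ± 1.33 of reads at Plastic day 4 (SD, n = 4) and 8.22% ± 0.35 at Plastic day 14 (n = 4). In the single day 4 libraries they took 2.03%, 2.08%, 4.65% and 3.94% of reads (replicates 1 to 4), and at day 14 8.0%, 8.13%, 8.02% and 8.74%. The groups did not overlap, and the low values at day 4 belonged to the closely alike pair. The 10 genes with the largest loss went from 3.51% ± 0.49 to 1.52% ± 0.19 of reads (n = 4 each). These 20 genes were chosen on the same libraries, so the shares describe them and test nothing.

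ENSRNOG00000014288 carried the largest gain. Its level was 4873, 5741, 8231 and 10653 CPM in Plastic day 4 replicates 1 to 4, and 15627, 22208, 21723 and 16790 CPM in the Plastic day 14 replicates. Every day 14 library was above every day 4 library, and the transcript moved from the fourth most abundant gene at day 4 to the most abundant at day 14. The log2 fold change was 1.37 ± 0.26 (SE; edgeR adjusted p = 0.000816), and its difference of 11712 CPM was 4.44% of the gain. On plastic at day 7 its mean stood between the other days at 13488 ± 2520 CPM (SD, n = 3).

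ENSRNOG00000017510 came next, with 9281 CPM or 3.52% of the gain. It measured 2124, 2250, 1366 and 3620 CPM in the day 4 replicates and 14046, 13671, 12028 and 6739 CPM in those of day 14. The groups were again separate, though Plastic day 14 replicate 4 was lower than the other 3 day 14 libraries and nearest to the day 7 level of 4779 ± 1040 CPM (SD, n = 3). The gene rose 4.97-fold (log2 fold change 2.31 ± 0.50, SE; edgeR adjusted p = 0.00194), from rank 25 to rank 2 in abundance. Both of these genes were called under all 16 alternative settings, with log2 fold changes of 1.17 to 1.60 for ENSRNOG00000014288 and 2.16 to 2.60 for ENSRNOG00000017510.

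The 2 genes at the head of the loss did not pass the test. ENSRNOG00000034254 was the most abundant gene at day 4, at 11117, 11638, 9112 and 12956 CPM in replicates 1 to 4. At day 14 it stood at 7857, 7803, 7760 and 5891 CPM and ranked 10 in abundance. The day 14 libraries all lay below the day 4 libraries, yet the log2 fold change of -0.61 ± 0.25 (SE) had an edgeR adjusted p of 0.0619. It was called with library size scaling (adjusted p = 0.0139) and with DESeq2 (adjusted p = 0.0371), and in 2 of 16 alternatives in all. The difference of -3878 CPM was 2.64% of the loss.

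ENSRNOG00000001414 had the second largest loss, -2954 CPM or 2.01% of the total. Plastic day 4 replicates 1, 2 and 4 held 6574, 6821 and 8189 CPM, and replicate 3 held 2705 CPM. The day 14 replicates held 4157, 3392, 3235 and 1688 CPM. Replicate 3 of day 4 lay inside the day 14 range, so the groups overlapped (log2 fold change -0.96 ± 0.50, SE; edgeR adjusted p = 0.139). The log2 fold change was -1.17 without that library (edgeR adjusted p = 0.0763), and no alternative brought the gene past the threshold. The Plastic day 7 libraries were widely spread, at 9547, 2309 and 7638 CPM.

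**Figure D3:**
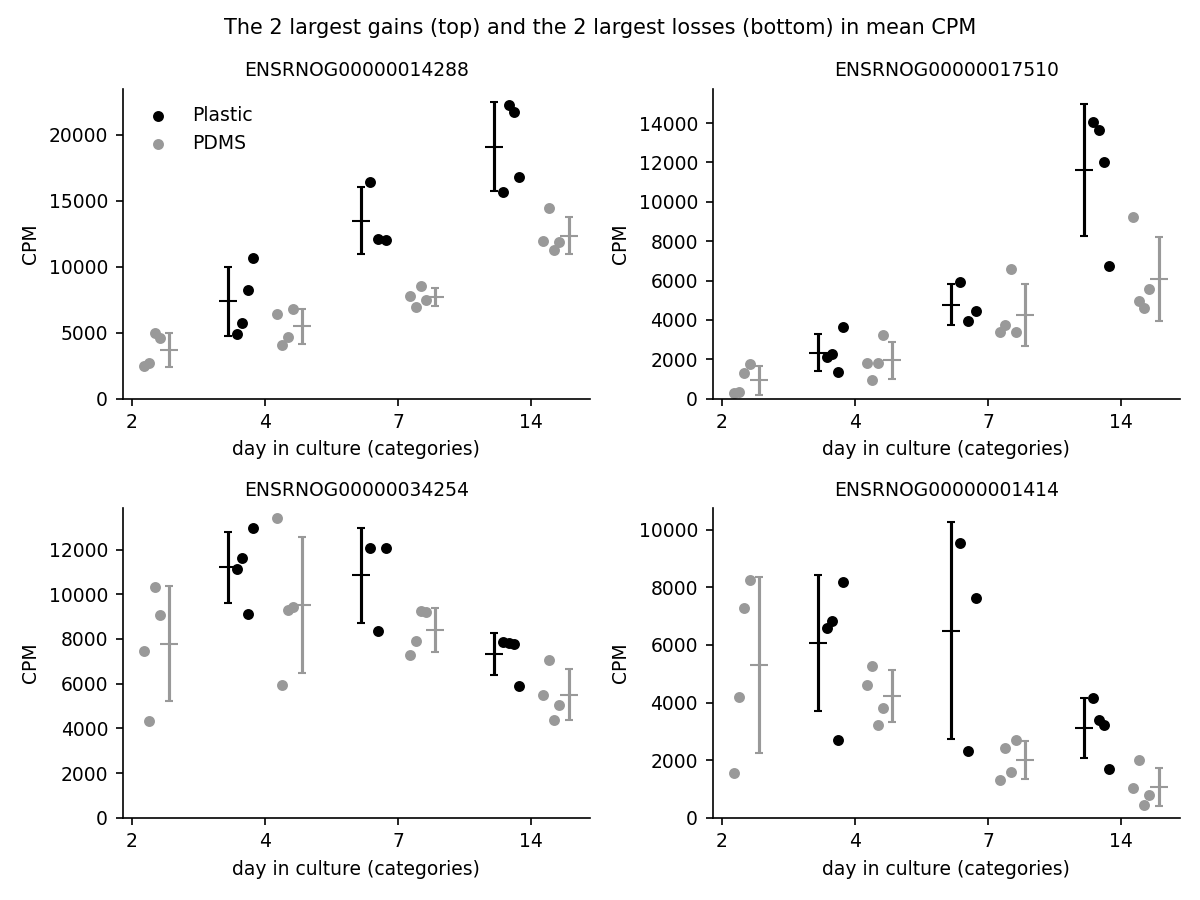
CPM of the 2 genes with the largest gain (top) and the 2 with the largest loss (bottom) by day in culture, with 1 point per library, plastic in black and PDMS in grey; the bars beside the points give the mean ± SD. At day 14 the plastic libraries lie above all day 4 plastic libraries for both gain genes and below them for ENSRNOG00000034254, while ENSRNOG00000001414 overlaps through 1 day 4 library at 2705 CPM.

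The same 4 genes were then read in the PDMS libraries, whose levels do not enter the plastic difference, although their spread enters the shared error of the fit. Here ENSRNOG00000014288 went from 5488 ± 1320 CPM at day 4 to 12345 ± 1409 CPM at day 14 (SD, n = 4 each; log2 fold change 1.17 ± 0.26, SE; edgeR adjusted p = 0.00417). ENSRNOG00000017510 went from 1948 ± 944 to 6086 ± 2133 CPM (log2 fold change 1.64 ± 0.49; edgeR adjusted p = 0.0178). Both loss genes passed the test on PDMS. ENSRNOG00000034254 fell from 9515 ± 3056 to 5496 ± 1141 CPM (log2 fold change -0.79 ± 0.25; edgeR adjusted p = 0.0233), and ENSRNOG00000001414 from 4223 ± 893 to 1067 ± 664 CPM (log2 fold change -1.98 ± 0.51; edgeR adjusted p = 0.00917). The course on plastic and that on PDMS were not shown to differ for any of the 4. The interaction of substrate with day, as plastic minus PDMS log2 fold change, was 0.20 ± 0.36 for ENSRNOG00000014288, 0.67 ± 0.67 for ENSRNOG00000017510, 0.18 ± 0.35 for ENSRNOG00000034254 and 1.02 ± 0.70 for ENSRNOG00000001414 (SE; lowest edgeR adjusted p = 0.837). Over all 14258 genes edgeR called 0 for that interaction, with 971 at an unadjusted p under 0.05.

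The 94 genes that made up 50% of the gain were abundant transcripts. Their median level was 583 CPM at Plastic day 4 and 1306 CPM at Plastic day 14, against medians of 22 and 20.5 CPM over all genes tested, and each had at least 592 CPM at day 14. Their fitted log2 fold changes ran from 0.19 to 4.44 with a median of 1.33, so that 66 differed more than 2-fold and 22 more than 4-fold. Of the 94, 60 were called (63.8%), all higher, against 14.3% called higher over all genes tested. In 55 (58.5%) the 4 and 4 libraries did not overlap, which held for 27.5% of all genes. Among the 10 largest gains 6 were called and 8 had separate groups. Each of the 94 rose by at least 446 CPM, so a high level at day 14 follows from the ranking. Since these genes were picked by their difference between the same groups, the counts are a description.

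Together the 94 genes took 7.44%, 7.51%, 14.2% and 11.3% of reads in Plastic day 4 replicates 1 to 4, and 20.1%, 20.8%, 20.4% and 23.0% in the day 14 replicates. Replicate 3 had the highest day 4 share, and replicates 1 and 2, the alike pair, the lowest. At Plastic day 7 the share was 15.7% ± 2.81 (SD, n = 3; 12.5% to 17.4%), between 10.1% ± 3.26 at day 4 (n = 4) and 21.1% ± 1.30 at day 14 (n = 4), and 87 of the 94 genes had a day 7 mean between those of the other days. Of all genes tested 61.2% had such a middle position.

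The 334 genes that made up 50% of the loss were less abundant and moved by smaller steps. Part of this follows from the ranking, which cut the loss at -75.5 CPM and the gain at 446 CPM. Their median level was 336 CPM at day 4 and 188 CPM at day 14, and their median log2 fold change was -0.78, with 130 differing more than 2-fold and 63 more than 4-fold. Of these, 214 were called (64.1%), all lower, against 18.3% called lower over all genes tested. In 141 (42.2%) the groups did not overlap, against 27.5% over all genes. Among the 10 largest losses 4 were called and 2 had separate groups. The 334 genes took 21.9%, 22.4%, 15.8% and 19.8% of reads in the day 4 replicates and 11.9%, 11.8%, 11.5% and 9.36% in those of day 14. For this share, too, replicate 3 was the day 4 library nearest to the day 14 values. At day 7 the share was 16% ± 2.51 (SD, n = 3), and 274 of the 334 genes had a day 7 mean between those of days 4 and 14.

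**Figure D4:**
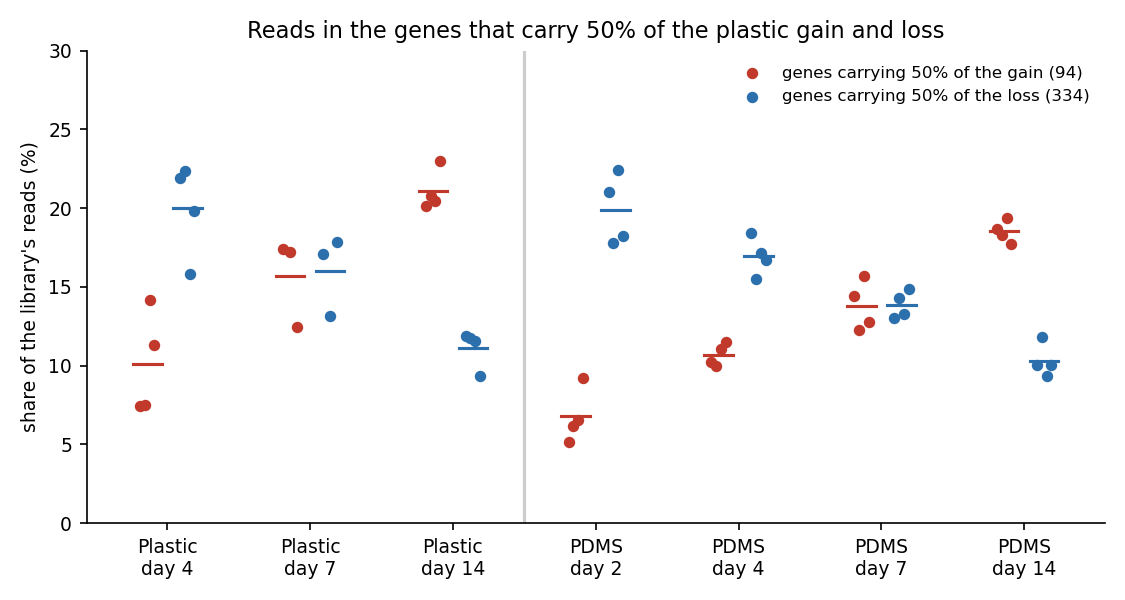
Share of all reads (percent) taken by the 94 genes that carry 50% of the plastic gain (red) and the 334 that carry 50% of the loss (blue), 1 point per library with a line at the group mean. On plastic the mean of the gain genes goes from 10.1% to 21.1% between days 4 and 14, and that of the loss genes ends at 11.1%. In the PDMS libraries, which did not choose the genes, the means go from 10.7% to 18.5% and from 16.9% to 10.3%.

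Followed on PDMS, where 28.6% of the genes tested were called between days 4 and 14, the mean shares of both sets went in the same direction as on plastic. The 94 genes took 6.79% ± 1.71 of reads at PDMS day 2, 10.7% ± 0.73 at day 4, 13.8% ± 1.55 at day 7 and 18.5% ± 0.71 at day 14 (SD, n = 4 each), and the libraries of days 4, 7 and 14 did not overlap. The loss genes took 19.9% ± 2.22, 16.9% ± 1.21, 13.8% ± 0.87 and 10.3% ± 1.05 (n = 4 each). On PDMS 87 of the 94 gain genes (92.6%) had a higher mean at day 14 than at day 4, as had 47.6% of all genes tested, and 36 of them (38.3%) were called higher, as were 13.4% of all genes. Of the loss genes 321 of 334 (96.1%) were lower, against 52.4% of all genes, and 171 (51.2%) were called lower, against 15.2%. None of either set was called in the opposite direction on PDMS. The same ranking made on the PDMS libraries alone gave 105 genes for 50% of the gain and 283 for 50% of the loss, a ratio of 2.70, out of 213332 CPM gained and 135859 CPM lost. Of the gain genes 65 were on both lists, which is 69.1% of the plastic list and 61.9% of the PDMS list. Of the loss genes 194 were shared, 58.1% and 68.6% of the lists.

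Most of the change in reads, a measure in which genes count by their level, was held by genes over 100 CPM. These genes also made up most of the reads. The 100 genes with a mean over 1000 CPM in the 27 libraries, 0.70% of those tested, held 37.5% of the gain and 16.3% of the loss. The 2097 genes between 100 and 1000 CPM held 45.1% and 45.9%. The 7068 genes between 10 and 100 CPM, the most populous class, held 16% of the gain and 34.1% of the loss. Below 10 CPM, 4993 genes together held 1.47% of the gain and 3.71% of the loss.

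The balance of calls differed between these classes. Of the called genes, 39.1% were rises under 1 CPM, 43.5% between 1 and 10, 41.8% between 10 and 100, 53% between 100 and 1000 and 75% (24 of 32) over 1000 CPM. With library size scaling the share of rises was 60.6% (20 of 33) over 1000 CPM, 30.9% between 100 and 1000 CPM and 22.7% between 10 and 100 CPM. The most abundant class thus kept a majority of rises under both scalings, and the class below it did not. Without Plastic day 4 replicate 3 the share over 1000 CPM was 84.2% (32 of 38), and without Plastic day 14 replicate 4 it was 81% (17 of 21). Leaving out that day 4 library also turned the classes from 1 to 10 CPM and from 10 to 100 CPM to majorities of rises, at 51.5% and 51.03%, with 58.6% between 100 and 1000 CPM. The percentage of genes called was 23.8% in the lowest class and 32% to 34.4% in the other 4.

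**Figure D5:**
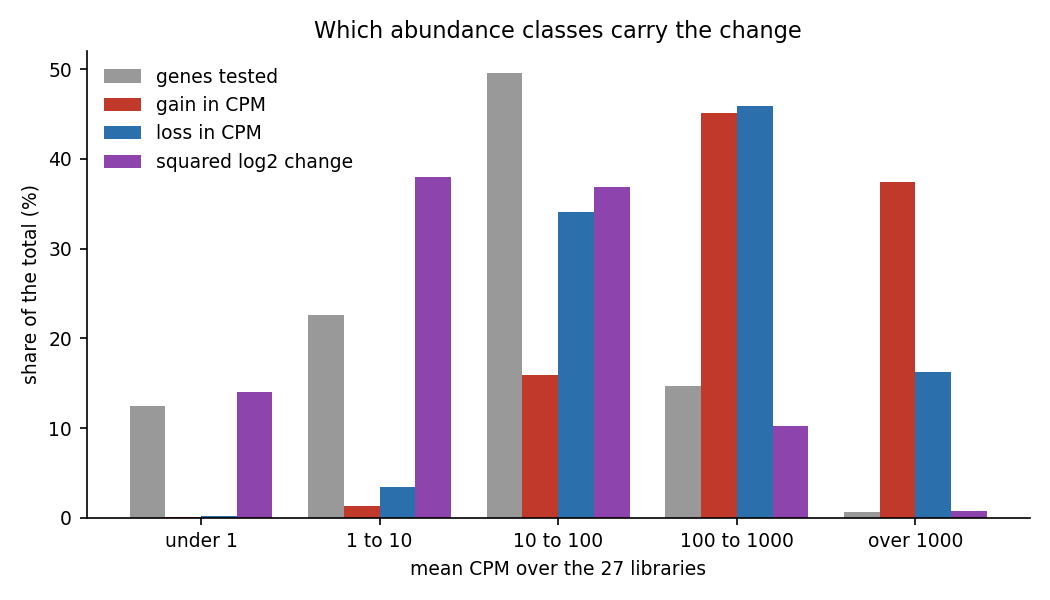
Share (percent) of the genes tested, of the gain in CPM, of the loss in CPM and of the summed squared differences of mean log2 CPM held by 5 classes of mean CPM over the 27 libraries. Genes over 100 CPM hold most of the gain and loss. Genes under 100 CPM, 12061 of the 14258 tested, hold most of the squared log2 change.

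A weighting by fold change in place of reads picked out other genes. When each gene counted by the square of its difference in mean log2 CPM (prior count 2), 680 genes, 4.77% of those tested, made up 50% of the total. Of these, 24 were among the 94 gain genes and 48 among the 334 loss genes. Their median level was 9.79 CPM at day 4 and 1.70 CPM at day 14. By direction 481 of the 680 (70.7%) were lower at day 14 and 199 higher, while among all genes tested 53.5% were lower. The 12061 genes under 100 CPM, most of the 14258 tested, held 89% of the squared log2 change, not far from their share of the genes. They held 17.4% of the gain and 37.8% of the loss in reads. The 4993 genes under 10 CPM held 52.1% of the squared log2 change. With library size scaling 76.6% of the genes that carried 50% were lower, and 63.3% of all genes were.

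The called genes with the largest folds were mostly scarce transcripts that fell. Of the genes called lower, 566 changed more than 8-fold, and of those called higher, 116 did, although the median log2 fold changes of all called genes were alike in size (-0.99 for the 2603 and 0.94 for the 2038). The 566 genes had a median of 6.21 CPM at day 4 and 0.38 CPM at day 14, and 35 of them exceeded 100 CPM at day 4. Without Plastic day 4 replicate 3 the numbers were 460 and 287, and without Plastic day 14 replicate 4 they were 671 and 99. The 566 genes held 36.2% of the squared log2 change and 11.5% of the loss in reads. The 116 genes had medians of 0.34 and 5.26 CPM and held 7.59% of the squared log2 change and 2.38% of the gain.

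The level of the 566 genes varied widely among the day 4 libraries. Their median was 6.16, 6.28, 1.74 and 3.67 CPM in Plastic day 4 replicates 1 to 4, and 0.15, 0.30, 0.26 and 0.32 CPM at day 14. Their share of reads was 1.86% ± 0.80 at day 4 (SD, n = 4) and 0.107% ± 0.042 at day 14 (n = 4). In replicate 3, 176 of the 566 were within the range of the day 14 libraries, as were 19 of the 116 genes with large rises. This count was not made over all genes, so it cannot be judged high or low. The groups overlapped in 244 of the 566. Over all genes tested 27.5% had groups that did not overlap. Less overlap among the 566 follows from their choice by a call and a large fold between the same libraries. At Plastic day 7 the medians were 1.39, 0.78 and 1.01 CPM, below every day 4 library and above every day 14 library. Their share on PDMS was 3.20% ± 1.73 of reads at day 2, 0.93% ± 0.31 at day 4, 0.20% ± 0.06 at day 7 and 0.097% ± 0.075 at day 14 (SD, n = 4 each), and 440 of the 566 (77.7%) were called lower there between days 4 and 14, against 15.2% of all genes tested. The 116 genes with large rises were at medians of 0.27, 0.17, 0.49 and 0.34 CPM in the day 4 replicates and 4.66, 4.74, 4.76 and 4.06 CPM in the day 14 replicates. Of these, 58 (50%) were called higher on PDMS, against 13.4% of all genes. Their median log2 fold change was 3.59 on plastic, by which they were chosen, and 2.07 on PDMS. For the 566 genes the medians were -3.89 and -3.26. Both sets were chosen by their fold on plastic, which is a term of the interaction of substrate with day. The counts that follow therefore describe the sets and test nothing. The interaction had an unadjusted edgeR p under 0.05 in 36 of the 116 and 19 of the 566, against 971 of all 14258 genes. No gene was called for it after adjustment. In bulk RNA a smaller number of cells of one kind and less RNA per cell cannot be told apart. Whether cells other than fibroblasts contributed to the early libraries was not tested, since no ID could be tied to a marker gene.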

How the data were processed

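Raw counts per library, deposited by the authors as whole numbers for each Ensembl rat ID, were the starting point. Per the series design text, reads were checked with FastQC 0.11.2, bamUtil 1.0.11 and dupRadar 1.4, and expression was quantified with Cufflinks; the submitters' processing notes also list STAR and DESeq2. Which program produced the counts, whether it used strand, and which genome build and annotation it read: not given in the sources used here. Overlapping genes and near-identical copies may therefore share reads. Libraries were made from 200 ng of RNA. A single column (1) that matches none of the 27 samples was set aside, and the deposited RPM and variance-stabilized tables were not used.

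The analysis ran in R 4.3.3. filterByExpr of edgeR 4.0.16 (count of about 10, total of at least 15) left 14258 genes, with 99.9% or more of the reads in every library. After TMM scaling, edgeR's quasi-likelihood model took the 7 groups as means (27 libraries, 20 residual degrees of freedom), and p-values were adjusted by Benjamini-Hochberg over all genes, with calls under 0.05. Each SE was obtained as the log2 fold change divided by the root of the F statistic. CPM uses the TMM-scaled total and shares of reads the raw total. Alternatives were DESeq2 1.42.0, limma-voom 3.58.1, library size scaling, no filter, a replicate block, the plastic groups alone, summed alike pairs and left-out libraries. In simulated counts for Plastic day 14 against day 4 (14068 genes), the model recovered 46% of 2-fold and 81% of 4-fold changes and made 6 false calls. The changed genes, 100 per fold, had a fitted mean of at least 20 counts at day 4, so recovery of scarce genes was not measured. The counts were drawn independently, without alike pairs or libraries that stand apart. The 6 false calls therefore do not cover such features.

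The members and lists were chosen with earlier results of these data known. The rule for named genes used symbols; its fallback for IDs without them gave the 2 genes with the largest gain and the 2 with the largest loss in mean CPM, called or not. Sets by fold size were chosen after the data were seen. Gene lists and cell type markers, written as symbols, could not be used.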

Additional observations from a re-analysis of the deposited data

Results flagged for a closer look

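Dixon's gap test was applied to each group of 4 libraries: the distance from the highest or lowest library to its neighbour, over the whole spread of the group. It was run for 12 measures in both plastic groups, or 24 groups, and 5 exceeded the 95% critical value. By chance 1.2 would be due if the libraries of a group were independent. Plastic day 14 replicates 2 and 3 were closely alike, however, and most measures rest on genes chosen on these libraries. The number due by chance is therefore not known. Plastic day 14 replicate 4 was the library in each of the 5, and the measures share genes. ENSRNOG00000034254 stood at 5891 CPM there, below 7760 to 7857 in the others. The 334 genes that carry 50% of the loss took 9.36% of its reads, below 11.5% to 11.9%, and the 10 genes with the largest loss took 1.24%, below 1.58% to 1.64%. The 680 genes that carry 50% of the squared log2 change took 8.47%, above 4.47% to 5.04% in the others. The 116 genes called more than 8-fold higher had a median of 4.06 CPM, below 4.66 to 4.76. The deviations of this library from its group mean correlated with those of Plastic day 4 replicate 3 (Pearson r = 0.53 across genes, which are not independent replicates). Without both libraries, an alternative chosen after seeing the data, 4744 genes were called, of which 3971 were among the 4641.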

How the results depend on the processing

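The number of genes called on plastic, 4641, stayed within 1.5 times under DESeq2, limma-voom, library size scaling and no filter. It was 2519 with only the 8 plastic libraries in the fit, of which 2403 were among the 4641, and 2375 with the closely alike pairs summed. Leaving out 1 library gave 3075 to 5319, the lowest without Plastic day 4 replicate 2 and the highest without Plastic day 4 replicate 3. On PDMS the count of 4075 became 2590 to 3848 with 1 library left out (the lowest without PDMS day 4 replicate 1, followed by 2617 with PDMS day 14 replicate 3 left out). Genes called more than 8-fold lower numbered 460 to 671, and those called more than 8-fold higher 99 to 287, with Plastic day 4 replicate 3 or Plastic day 14 replicate 4 left out, and 211 of the latter with both left out. The reads moved came to 194952 CPM with the alike pairs summed and 222050 CPM without Plastic day 4 replicate 3 and Plastic day 14 replicate 4 (exact permutation p = 0.1 each, the smallest that 3 against 3 libraries can give), and to 189206 to 236824 CPM with 1 library left out. The numbers of genes that carry 50% of the gain, loss or squared log2 change stayed within 1.5 times in all alternatives run. With 1 library left out, 75 to 92 of the 94 gain genes and 265 to 321 of the 334 loss genes were found again. A pairing of the plastic libraries by replicate number was not seen. Deviations of same-numbered libraries correlated at -0.41 to 0.34, and 3 of 8 libraries correlated best with their own number. With so few libraries, some of them closely alike, the check cannot exclude a pairing. A replicate block gave 4879 genes. The alternative without mitochondrially encoded genes was not run, because no ID could be named.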
